A study of Mus musculus with 2 samples.

Results

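Cycling cells of the mouse mandibular lymph node were taken as the droplet barcodes in which RNA of 10 cell cycle genes was plentiful. A barcode was a member where at least 5 UMIs, each UMI being 1 captured RNA molecule, came from Mki67, Top2a, Cdk1, Ccnb1, Ccnb2, Ccna2, Birc5, Tpx2, Cenpf and Ube2c together. Barcodes with fewer than 500 genes, or with mitochondrial RNA above 10% of their UMIs, were not considered. The rule found 206 of 11157 kept barcodes in the library made after a sham operation and 40 of 11454 in the library made after subarachnoid haemorrhage (SAH), 246 of 22611 in all. Such a haemorrhage fills the fluid space beneath the brain's arachnoid membrane with blood, and the mandibular nodes receive lymph from the head.

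Per the labels, the haemorrhage was made by infusing the mouse's own blood, and nodes were taken 24 h after either operation. Nodes of 20 mice were pooled into each of the 2 libraries, cells bearing CD45, a surface protein of leukocytes, were depleted, and the rest were selected on beads carrying antibodies against CD31, found on endothelium, and PDPN (podoplanin), found on lymphatic endothelium and fibroblastic stroma. The cells were tagged at the 5′ end of their RNA in droplets. The labels used here name neither strain nor age. Each group is thus 1 library of pooled mice. No test was made, no difference has a replicate check, and every difference below is between these libraries and not shown to be one between the operations. Bracketed values are exact 95% intervals, which cover counting error only, and a share of cells after such a selection need not be that of the node.

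A dividing cell first copies its DNA in S phase, which needs the MCM helicase, the sliding clamp, nucleotide synthesis and new histones. It then passes through G2 into mitosis, where cyclin B with Cdk1 drives the entry, a spindle of tubulin and motor proteins parts the chromosomes, and the anaphase-promoting complex ends the phase by having cyclins degraded. Most endothelial and stromal cells of an adult node rest outside this cycle, and the node's vessels and fibroblasts are known to divide when a node swells in an immune response.

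The 10 rule genes belong mainly to G2 and mitosis. Cdk1 is the mitotic kinase, Ccnb1, Ccnb2 and Ccna2 are its cyclins, and Ube2c is the ubiquitin-conjugating enzyme of the anaphase-promoting complex. Top2a untangles DNA, Cenpf sits at kinetochores, Birc5 is a subunit of the chromosomal passenger complex, Tpx2 builds the spindle and Mki67 coats mitotic chromosomes. Genes of this phase are known to carry CCAAT boxes, bound by NF-Y, and the CHR element, read here as TTTGAA or TTTAAA, bound by the DREAM complex. The RefSeq promoter table (GRCm38.p6, 250 bases before to 50 after the start) held 8 of the 10 genes, without Ccna2 and Tpx2. The promoters of 3 cyclin and kinase genes and, for contrast, Birc5 are printed 5′ to 3′ to show which motifs such windows hold. Capitals mark every CCAAT, found as ATTGG on the other strand. They also mark TTTGAA, found there as TTCAAA. The third motif, TTTAAA, reads alike on both strands.
Cdk1, chr10:69352863-69353162, minus strand: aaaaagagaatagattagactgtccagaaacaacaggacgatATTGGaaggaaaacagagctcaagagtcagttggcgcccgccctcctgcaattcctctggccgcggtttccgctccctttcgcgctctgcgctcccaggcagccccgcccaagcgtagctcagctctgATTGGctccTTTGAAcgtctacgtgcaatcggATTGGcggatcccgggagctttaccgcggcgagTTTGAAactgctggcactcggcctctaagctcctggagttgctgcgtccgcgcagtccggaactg
Ccnb1, chr13:100786437-100786736, minus strand: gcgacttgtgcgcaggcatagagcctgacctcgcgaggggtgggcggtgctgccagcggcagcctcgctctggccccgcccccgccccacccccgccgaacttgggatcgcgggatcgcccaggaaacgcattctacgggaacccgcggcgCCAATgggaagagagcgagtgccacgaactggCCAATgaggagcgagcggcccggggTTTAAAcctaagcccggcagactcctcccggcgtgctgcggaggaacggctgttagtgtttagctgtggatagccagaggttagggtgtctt
Ccnb2, chr9:70421505-70421804, minus strand: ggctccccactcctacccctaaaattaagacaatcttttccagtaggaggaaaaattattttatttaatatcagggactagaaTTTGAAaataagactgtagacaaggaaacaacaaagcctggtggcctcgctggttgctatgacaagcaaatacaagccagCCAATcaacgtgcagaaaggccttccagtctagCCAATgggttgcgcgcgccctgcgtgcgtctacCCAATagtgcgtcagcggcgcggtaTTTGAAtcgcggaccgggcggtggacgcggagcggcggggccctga
Birc5, chr11:117848987-117849286, plus strand: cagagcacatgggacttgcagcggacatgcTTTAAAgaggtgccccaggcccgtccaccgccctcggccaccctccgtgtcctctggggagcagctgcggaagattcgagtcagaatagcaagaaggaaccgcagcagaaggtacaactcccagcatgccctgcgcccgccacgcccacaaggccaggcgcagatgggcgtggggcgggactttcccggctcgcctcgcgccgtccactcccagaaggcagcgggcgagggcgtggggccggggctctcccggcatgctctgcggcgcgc
Of the 8 promoters, 7 held at least 2 CCAAT matches and 8 held TTTGAA or TTTAAA, and 7 held both. Over all 32851 promoters of the table, 37.4% held CCAAT, 11.7% at least 2 of them, 27.6% TTTGAA or TTTAAA, and 3.13% both at least 2 CCAAT and TTTGAA or TTTAAA. In Ccnb2 CCAAT began at -87, -54 and -21 and TTTGAA at -167 and 4, counted in bases from the start. Birc5 had no CCAAT in the window. TTTCCCGC, a form of the E2F site, was in none of the 8 promoters and in 1.07% of all. A match is a run of letters, not a shown binding site.

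The values that chose the members are given as a description. In sham members the summed level was highest for Ube2c, 500 CPM (UMIs per 1000000 UMIs of the summed barcodes), and lowest for Ccnb1, 87.9 CPM. In SAH members it was highest for Mki67, 469 CPM, and lowest again for Ccnb1, 71.3 CPM. In the other kept barcodes each rule gene stood between 0.221 and 9.06 CPM in the sham library and between 0.177 and 4.61 CPM in the SAH library. Cdk1 was detected in 160 of 206 sham members and 15 of 40 SAH members. Mki67 was detected in 163 and 33, and Birc5 in 170 and 28. At least 3 of the 10 genes were detected in 195 sham and 33 SAH members. At the edge of the rule, 18 sham and 6 SAH barcodes held exactly 5 rule UMIs, and 28 and 11 held exactly 4 and were left out. The median member held 24 rule UMIs in the sham library (range 5 to 182) and 16 in the SAH library (5 to 261).

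Members were deep barcodes. Their median was 13189 UMIs and 3743.5 genes in the sham library and 10955.5 UMIs and 3427.5 genes in the SAH library, against 4980 and 5730 UMIs in the other kept barcodes. Mitochondrial shares were close to those of the other barcodes, with medians of 4.50% against 4.72% and 3.57% against 3.84%. Scrublet called 10 sham members and 2 SAH members doublets. At least 5 markers of a second compartment were detected in 36 (17.5%) and 7 (17.5%) members, against 9.67% and 12.9% of the other barcodes. Whether 2 cells in a droplet put barcodes among the members was not tested beyond leaving these out. The libraries shared 76 barcode sequences, of which 1 was a sham member.

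Most members carried the markers of node stroma. Each barcode was assigned to the panel of 8 markers of which it held most, with at least 3, and the rule genes were in no panel. Lymphatic endothelial, blood endothelial, high endothelial venule, fibroblastic and mural panels, abbreviated LEC-, BEC- and HEV-like for the first 3, took 95.6% [91.9, 98.0] of sham and 92.5% [79.6, 98.4] of SAH members. Pecam1, which encodes CD31, was detected in 191 of 206 and 35 of 40 members. Ptprc, which encodes CD45, had a UMI in 10 and 3 members. The labels call the cells lymphatic endothelium, but its factor Prox1 was detected in 50 sham and 16 SAH members, and Ly6c1 of blood endothelium in 163 and 23. The label "stromal" did not hold for all of them. The sham library had 1 member like a B cell, 1 like a T or NK cell, 2 epithelial-like and 5 of no panel, and the SAH library 1 like a B cell and 2 of no panel.

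A few members carried abundant RNA of another cell type, whatever their panel. The neutrophil granule genes Elane (349 UMIs), Mpo (105) and Prtn3 (204 of 206) came from 1 sham member with 6 BEC markers, 2 Ptprc UMIs and 9 rule UMIs. Jchain, the joining chain of plasma cell antibodies, had 277 of its 279 UMIs in 1 sham member of no panel and 246 of its 308 in 1 SAH member with 7 BEC markers and 6 Ptprc UMIs. Haemoglobin Hbb-bs had 2690 of 2702 UMIs in 1 sham HEV-like member and 2204 of 2209 in 1 SAH fibroblastic-like member. These barcodes also held 8 and 9 UMIs of Alas2, the first enzyme of haem synthesis in red cell precursors. Both epithelial-like members held 82 UMIs of the keratin Krt8, and the rest of its 209 UMIs came from 1 further sham member that was not epithelial-like.

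The first comparison asked how many cells of each lineage were cycling in either library. Members made up 1.85% [1.60, 2.11] of kept sham barcodes and 0.349% [0.250, 0.475] of kept SAH barcodes, an SAH-to-sham ratio of 0.189 [0.131, 0.266]. BEC-like barcodes had the lowest ratio among the 3 endothelial lineages. Of these lining cells of ordinary blood vessels, 137 of 5834 were cycling in the sham library (2.35% [1.98, 2.77]) and 12 of 5956 in the SAH library (0.201% [0.104, 0.352]), a ratio of 0.0858 [0.0433, 0.155]. LEC-like barcodes, which line the sinuses, had 31 of 1658 (1.87% [1.27, 2.64]) and 10 of 1831 (0.546% [0.262, 1.00]), a ratio of 0.292 [0.128, 0.611]. In these 2 lineages the intervals of the shares did not overlap between the libraries.

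HEV-like barcodes come from the venules through which lymphocytes enter, and 18 of 956 (1.88% [1.12, 2.96]) and 9 of 902 (0.998% [0.457, 1.89]) were cycling. Their ratio of 0.530 [0.210, 1.24] had an interval that took in 1, but it moved with the threshold and the lineage call. It was 0.283 [0.0683, 0.887] at 10 rule UMIs, with 15 and 4 members, and 0.227 [0.0418, 0.814] with 10 mitosis list UMIs asked for instead, with 14 and 3. With lineage read after thinning to equal depth it was 0.316 [0.0900, 0.916], with 15 and 5. Other settings gave up to 0.629. Fibroblastic-like barcodes, the node's supporting cells, had the lowest sham share of the 5 stromal lineages, with 7 of 1971 (0.355% [0.143, 0.730]) against 5 of 2286 (0.219% [0.0711, 0.510]) in the SAH library. Of the 7 sham members 5 also held 5 or more markers of a second compartment, and without such barcodes the numbers were 2 and 3, with the ratio on the other side of 1 at 1.29 [0.147, 15.4]. Mural-like barcodes, the contractile cells around vessels, gave 4 of 232 and 1 of 165. No myeloid-like or Schwann-like barcode was cycling in either library, among at most 27 such barcodes each.

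**Figure D1:**
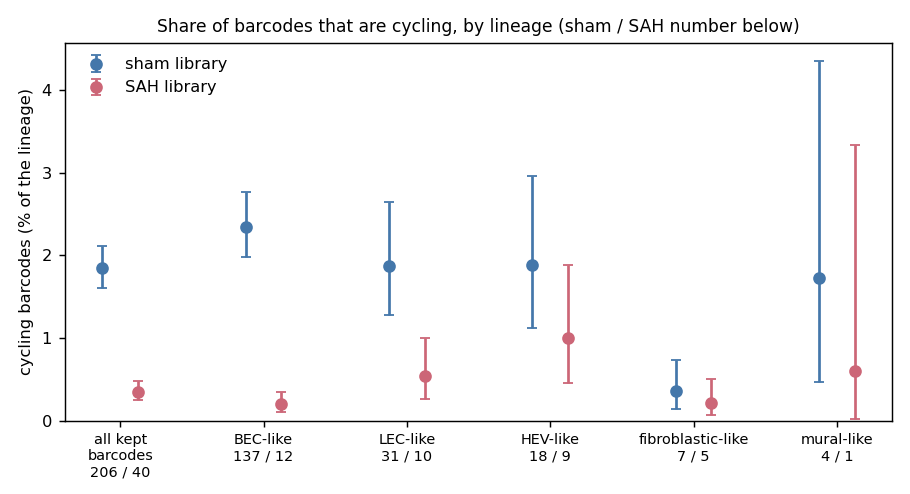
Share of barcodes that are cycling (% of the kept barcodes of a lineage) in the sham (blue) and the SAH library (red). Points are shares, bars are exact 95% intervals for counting error, and the numbers of cycling barcodes stand under each lineage. The BEC-like share is 2.35% against 0.201%, while the HEV-like, fibroblastic-like and mural-like intervals overlap.

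The shares were also read at 1 depth. After each barcode was thinned at random to 2000 UMIs, with at least 3 rule UMIs asked for in place of 5, 139 of 10133 sham barcodes (1.37%) and 23 of 10461 SAH barcodes (0.220%) were members, a ratio of 0.160 [0.0984, 0.250]. This left out 1024 sham and 993 SAH barcodes of fewer UMIs. The ratio was 0.105 [0.0490, 0.203] for BEC-like and 0.291 [0.105, 0.705] for LEC-like barcodes. For HEV-like barcodes, with 13 and 3 members left, it was 0.246 [0.0449, 0.895]. Barcodes with at least 1 rule UMI made up 11.6% [11.0, 12.2] of the sham and 7.77% [7.29, 8.28] of the SAH library. Thinned, these shares were 5.90% and 2.39% in BEC-like, 3.55% and 2.24% in LEC-like and 4.57% and 3.95% in fibroblastic-like barcodes. Median depths before thinning were 4240 and 4368 UMIs for BEC-like and 5097 and 6891 UMIs for fibroblastic-like barcodes. B cell barcodes stood at 4.69% and 9.80% after thinning, from only 64 and 51 barcodes. These shares of barcodes with at least 1 rule UMI are not read as shares of dividing cells. Free RNA can add a UMI to any droplet, and its part in them was not tested.

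The lineage make-up of the members also differed. BEC-like barcodes were 66.5% [59.6, 72.9] of sham members and 30% [16.6, 46.5] of SAH members, although they were 52.0% and 52.1% of the other kept barcodes. LEC-like barcodes were 15.0% [10.5, 20.7] and 25.0% [12.7, 41.2] of members, HEV-like 8.74% [5.26, 13.5] and 22.5% [10.8, 38.5], and fibroblastic-like 3.40% [1.38, 6.88] and 12.5% [4.19, 26.8]. The last 2 pairs rest on few SAH members near the threshold, since 4 of the 5 fibroblastic-like and 5 of the 9 HEV-like ones held 8 rule UMIs or fewer. After thinning, HEV-like barcodes were 9.35% [5.07, 15.5] of sham and 13.0% [2.78, 33.6] of SAH members, and fibroblastic-like ones 2.16% [0.447, 6.18] and 4.35% [0.110, 21.9]. Whether the SAH-to-sham ratio differs between lineages beyond sampling of mice and nodes could not be tested with 1 library in each group.

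The 4 genes that mark the lineages were also read in the members. Each is a marker of the panel that assigned its lineage, so its detection there is in part fixed by the assignment and is no separate check. Ly6c1, a surface protein of blood capillary endothelium, was in 137 of 137 BEC-like sham members and 12 of 12 BEC-like SAH members, at 1841 and 2120 CPM. That was less than in the other BEC-like barcodes, at 2784 and 3507 CPM. Prox1, the transcription factor of lymphatic identity, was in 26 of 31 and 10 of 10 LEC-like members, at 439 and 538 CPM against 646 and 589 CPM in the other LEC-like barcodes. Chst4, which makes the sulfated ligand for lymphocyte homing, was in 9 of 18 and 4 of 9 HEV-like members, at 87.1 and 55.2 CPM against 160 and 231 CPM. Dcn, the matrix protein decorin, was in 7 of 7 and 5 of 5 fibroblastic-like members, at 5800 and 4977 CPM against 11040 and 11462 CPM. Each marker was thus at a lower summed level in members than in other barcodes of its lineage, in both libraries, but no intervals are given for these gaps. The Prox1 gap in the SAH library was the smallest and is not read as a difference, and Chst4 rests there on 6 UMIs. Dcn was also detected in 45 of 137 BEC-like sham members, with a median of 0 UMIs, against 21.2% of the other, shallower BEC-like barcodes. Its level there was 211 against 250 CPM. It was higher in LEC-like sham members, at 747 against 278 CPM with up to 198 UMIs in a member, and in HEV-like ones, at 668 against 212 CPM. In the SAH library it was lower in members of these lineages, at 261 against 382 CPM in LEC-like and 202 against 364 CPM in HEV-like barcodes. The source of this Dcn RNA was not tested.

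The phase of the members was described with 30 S-phase and 30 mitosis genes, none of them a rule gene. Because the rule genes are mitotic, the balance between the lists depends on the rule and only its comparison between groups of members is of use. Sham members held 6720 S-phase and 8378 mitosis UMIs, a ratio of 0.802 [0.777, 0.828], and SAH members 963 and 1518, a ratio of 0.634 [0.585, 0.688]. In the other kept barcodes the ratio was 2.41 and 2.44, on a level of 140 and 119 CPM of the mitosis list. Among members with at least 10 UMIs of both lists together, S-phase UMIs exceeded mitosis UMIs in 77 of 187 sham members (41.2% [34.0, 48.6]) and 14 of 33 SAH members (42.4% [25.5, 60.8]). Counted by member, the intervals of the libraries overlapped.

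By lineage, the ratio was 0.798 [0.766, 0.831] in BEC-like sham members and 0.931 [0.801, 1.08] in BEC-like SAH members, with overlapping intervals. The SAH BEC-like member with Jchain held 78 of the 338 S-phase and 34 of the 363 mitosis UMIs. The ratio without it was not computed, and the gap is not read as a difference. LEC-like members of the sham library gave 0.933 [0.866, 1.00], and those of the SAH library 0.461 [0.403, 0.526]. A single SAH LEC-like member held 238 of the 712 mitosis UMIs and 261 rule UMIs, and without it the ratio was 0.662 [0.573, 0.766]. The sham ratio without its top member was 1.02 [0.943, 1.10]. HEV-like members gave 0.793 (sham) and 0.650 (SAH), where 1 of the 9 SAH members held 119 of 257 mitosis UMIs. Without the top member of each these were 0.929 and 0.746. All 4 sham mural-like members together held 23 S-phase against 392 mitosis UMIs, and the 1 SAH mural-like member 4 against 71. These ratios of 0.0587 and 0.0563 were below those of every other stromal lineage. By member the sham mitosis UMIs were 205, 178, 8 and 1, beside 14, 5, 3 and 1 S-phase UMIs. The sham ratio thus rests mainly on the members with 205 and 178. BEC-like sham members ranged from 0 to 115 S-phase UMIs and from 0 to 169 mitosis UMIs.

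**Figure D2:**
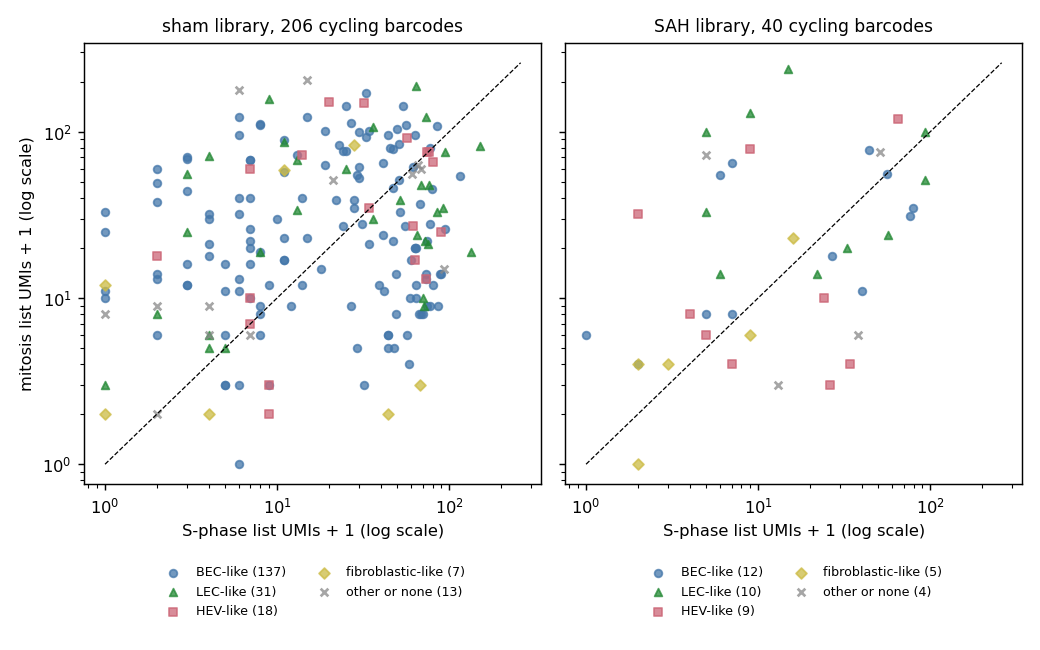
UMIs of 30 S-phase genes (x axis) and 30 mitosis genes (y axis), each plus 1 on a log scale, in every cycling barcode of the sham (left) and the SAH library (right), by lineage. The dashed line marks equal numbers. Members lie on both sides of the line in both libraries, with S-phase UMIs in excess in 77 of 187 sham and 14 of 33 SAH members that hold at least 10 such UMIs.

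The next comparison asked what else differed between cycling and other barcodes of one lineage. It was made in the sham library for BEC-like (137 members and 5697 others) and LEC-like barcodes (31 and 1627), the lineages with at least 20 members. Genes were counted where the higher group reached 50 CPM, and a gene was called where its CPM differed at least 1.5-fold, with the rule genes left out. Since the rule chose the members by their cell cycle RNA, related genes had to stand higher in them, and their values are a description of the members. In BEC-like barcodes 411 of 3468 genes (11.9%) were higher and 445 (12.8%) lower in the members. In LEC-like barcodes 669 of 3946 (17%) were higher and 559 (14.2%) lower. In the SAH library, with 12 and 10 members, 932 of 3951 genes (23.6%) were higher and 758 (19.2%) lower in BEC-like members, and 868 of 4124 (21%) higher and 833 (20.2%) lower in LEC-like members. These are folds between sums over cells of 1 library, and a gene of few UMIs passes the fold by counting error more easily.

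DNA replication genes were higher in both lineages. All 18 of the 30 S-phase genes that reached 50 CPM in BEC-like barcodes were higher, and the whole list summed to 2207 CPM in members and 370 CPM in others, a ratio of 5.96 [5.75, 6.18]. The median log2 fold of the 18 was 2.77, against -0.0027 over all 3468 genes. In LEC-like barcodes 22 of 22 were higher and the sums were 2973 and 344 CPM, a ratio of 8.65 [8.13, 9.20], and the median log2 fold was 3.34 against 0.08 over all 3946 genes. Genes that reach 50 CPM only in members had to be higher, so the sums over the whole list are the fuller measure. In the SAH library the ratios were 7.74 [6.92, 8.62] and 8.45 [7.53, 9.45]. Rrm2, the small subunit of ribonucleotide reductase, was at 87.8 CPM in BEC-like members against 0.720 CPM, a 122-fold [77.3, 202] difference. Tk1, thymidine kinase, was at 102 against 1.61 CPM in the same cells. Mcm6, a helicase subunit, differed less, at 67.6 against 21.6 CPM, 3.13-fold [2.56, 3.79], and so did Slbp, which binds histone mRNA, at 155 against 76.7 CPM.

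Mitosis genes outside the rule differed more. Of the 30, 22 of 23 at 50 CPM were higher in BEC-like and 25 of 26 in LEC-like members, and the sums were 17.3-fold [16.6, 17.97] and 23.8-fold [22.1, 25.5] higher. The median log2 folds were 6.48 and 6.81. SAH members gave 18.1 [16.2, 20.2] and, in LEC-like barcodes, 54.2 [49.5, 59.3], where 1 of 10 members held 33.4% of the mitosis UMIs. Kif11, the motor that holds the spindle bipolar, was at 68.7 CPM in BEC-like members and 0.103 CPM in the others. Prc1, which bundles the midzone, was at 171 and 0.788 CPM, and Cenpa, the centromeric histone, at 307 and 7.57 CPM. Pttg1, securin, was the exception, at 80.4 CPM in members and 112 CPM in the other BEC-like barcodes (0.719-fold [0.606, 0.846]).

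By the rule for named genes, the highest folds in BEC-like members, besides Kif11, were those of Mxd3, Pbk, Fam64a, Aspm, Hmmr, Nusap1 and the linker histone Hist1h1b. Mxd3, a MAX dimerisation protein, had 124 UMIs in 52 members and 3 UMIs in 5697 other barcodes. Elane and Mpo also met that rule, but every UMI of both in the members came from the 1 barcode named above. In LEC-like members the corresponding genes were Kif20a, Pbk, Tk1, Shcbp1, Mxd3, Hmmr, Esco2, Fam64a, Hist1h1b and Hist1h2ap. Mxd3, Pbk, Hmmr, Fam64a and Hist1h1b were thus named in both lineages. Esco2, which acetylates cohesin in S phase, had 25 UMIs in LEC-like members and 0 in the others.

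Chromatin and spindle components followed. All 15 of the 16 chromatin genes that reached 50 CPM were higher in BEC-like members, and their list summed to 8199 against 2007 CPM (4.09-fold [4.01, 4.16]). In LEC-like members 15 of 15 were higher, with a ratio of 3.99 [3.86, 4.12]. Hmgb2, a DNA-bending protein, was at 1571 against 128 CPM in BEC-like barcodes, H2afz, a histone H2A variant, at 2489 against 439 CPM, and Hmgb1 at 1590 against 793 CPM. The summed chromatin list of single members ran from 819 to 22395 CPM in sham blood endothelium (BEC- and HEV-like), with a median of 8453 CPM, while the middle 50% of the other barcodes lay between 1384 and 2396 CPM. Of the 8 tubulin and spindle genes 7 were higher in each lineage, with sums 4.02-fold [3.94, 4.11] and 3.60-fold [3.46, 3.74] higher. Stmn1, stathmin, which destabilises microtubules, was at 1261 against 78.1 CPM in BEC-like barcodes, and Tuba1a, the one not called, at 353 against 267 CPM. Ribosome biogenesis genes, which make the parts for growth, were higher in 9 of 9 cases in BEC-like and 6 of 9 in LEC-like members, with smaller ratios of 1.74 [1.68, 1.79] and 1.68 [1.58, 1.78].

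Regulators upstream of the cycle differed less. The 15 G1 and E2F genes summed to 1225 CPM in BEC-like members and 766 CPM in others (1.60-fold [1.53, 1.67]), and 1 of the 4 at 50 CPM was called. That was Cdk4, the kinase of cyclin D, at 271 against 123 CPM, while Ccnd1, cyclin D1, stood at 569 against 418 CPM. In LEC-like members the sum was 1.57-fold [1.47, 1.68], with 4 of 8 higher and 0 lower, where 17% of all genes were higher. Of the CDK inhibitors and p53 targets, 2 of 6 were higher and 1 lower in BEC-like members, where 11.9% and 12.8% of all genes were, and their sum was 0.770-fold [0.737, 0.803]. The INK4 inhibitors Cdkn2c and Cdkn2d were higher, at 108 against 33.7 CPM and 86.2 against 19.9 CPM. The antiproliferative gene Btg2 was lower, at 472 of the list's 1210 CPM in members and 954 of its 1573 CPM in others. Without Btg2 the sum was not lower in members, and Btg2 is also counted in the immediate early list below. Cdkn1a (p21) was at 136 against 181 CPM. In LEC-like members 4 of 8 were higher and 1 lower, with a sum of 1.03-fold [0.936, 1.13]. In the SAH library 1 of 5 was higher and 2 lower in BEC-like members (0.722-fold [0.608, 0.851]), and 6 of 8 were higher and 0 lower in LEC-like members (1.53-fold [1.29, 1.80]), where 21% of all genes were higher.

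Immediate early genes, which signals and handling switch on within minutes, were lower in members. In BEC-like barcodes 0 of 19 were higher and 16 lower, and the list summed to 10413 against 17969 CPM (0.580-fold [0.571, 0.588]). In LEC-like barcodes again 0 of 19 were higher and 16 lower, with 8329 against 16278 CPM (0.512-fold [0.496, 0.528]). Fos stood at 1242 against 2111 CPM in BEC-like barcodes and Klf4, a flow-responsive factor, at 299 against 643 CPM. The median log2 folds were -0.79 and -0.98. Over all genes, 11.9% and 17% were higher and 12.8% and 14.2% lower. In the SAH library 0 of 19 were higher and 13 lower in BEC-like members (0.621-fold [0.588, 0.655]), where 19.2% of all genes were lower. The gap was smaller in LEC-like SAH members, with 0 higher and 7 lower (0.823-fold [0.779, 0.870]), where 20.2% of all genes were lower. Their median by member was 8987 CPM, against 9875 CPM in the others. Rhob, at 559 against 573 CPM, did not differ 1.5-fold. Against the other BEC-like barcodes with at least 8000 UMIs, which are nearer the members in depth, the ratio was 0.619 [0.610, 0.628]. Single members spread widely, from 1214 to 39246 CPM with a median of 9168 CPM in sham blood endothelium, against a median of 16538 CPM in the others.

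The endothelial growth signals summed to less in members of both lineages and both libraries. Of these genes 2 of 14 were higher and 3 lower in BEC-like sham members, where 11.9% and 12.8% of all genes were, and the list summed to 0.773-fold [0.760, 0.787], with a median log2 fold of -0.40. In LEC-like sham members 0 of 13 were higher and 4 lower (0.776-fold [0.734, 0.821]), where 17% and 14.2% of all genes were. In the SAH library 1 of 15 was higher and 9 lower in BEC-like members (0.667-fold [0.624, 0.712]), and 0 of 13 higher and 7 lower in LEC-like members (0.620-fold [0.558, 0.687]), where 19.2% and 20.2% of all genes were lower. Flt1 and Nrp1, receptors for VEGF, were at 670 against 1239 CPM and 741 against 1369 CPM, and Esm1, a tip-cell gene, at 102 against 203 CPM. Apln, the ligand made by sprouting endothelium, and its receptor Aplnr were the 2 higher genes, at 59.6 against 13.7 CPM and 439 against 273 CPM. For Apln 3 of the 137 members gave 34.8% of the UMIs. Named low genes of BEC-like members included Penk, proenkephalin, at 10.6 against 125 CPM, the clock-controlled factors Dbp (32.5 against 168 CPM) and Hlf (25.0 against 78.7 CPM), Fmo2 (20.2 against 98.5 CPM), Sema3g, an arterial semaphorin (20.2 against 72.4 CPM), and the water channel Aqp1 (514 against 1544 CPM). The other named low genes were Ifit1, Cxcl10, Slfn5 and H2-Aa. In the 12 SAH members Fmo2 was 0.295-fold and Aqp1 0.560-fold, while Penk, with 7 UMIs, was 0.673-fold [0.270, 1.39].

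In LEC-like barcodes the named low genes were Igfbp5, Lmcd1, Ntn1, Nr4a1, Dbp, Cd300lg, Apold1, Unc45b, Klrb1f and Wipf3. Igfbp5 had 0 UMIs in 31 members against 50.2 CPM in the others. The members held 466919 UMIs in all, and 3 of the other barcodes gave 29.7% of its UMIs. Lmcd1, a LIM-domain corepressor, stood at 15.0 against 129 CPM, and Apold1, an immediate early gene of endothelium, at 96.4 against 450 CPM. Dbp was low in both lineages, at 10.7 against 61.4 CPM here.

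Interferon-stimulated genes summed to less in BEC-like members, and in LEC-like sham members to more with, and to less without, 2 barcodes. In BEC-like barcodes 0 of 20 were higher and 11 lower in members, with sums of 5473 and 6587 CPM (0.831-fold [0.814, 0.848]). Of all genes, 11.9% were higher and 12.8% lower in BEC-like sham members, and 17% and 14.2% in LEC-like ones. In LEC-like barcodes 9 of 23 were higher and 0 lower, with 10458 and 8012 CPM (1.31-fold [1.27, 1.34]), but 2 of the 31 members held 1821 of the list's 4883 UMIs. Without these 2 the sums were 7600 and 8012 CPM (0.949-fold [0.915, 0.983]), with 1 of 19 higher and 5 lower. Isg15, a ubiquitin-like interferon product, was at 146 against 235 CPM in BEC-like and 392 against 196 CPM in LEC-like barcodes, but 3 of the 31 LEC-like members gave 68.9% of its UMIs. By member the LEC-like difference was small, with a median of 7207 CPM, a range from 3766 to 30317 CPM, and a median of 6847 CPM in the others. In the SAH library the ratios were 0.925 [0.879, 0.972] and 0.985 [0.944, 1.03]. There 3 of 27 genes were higher and 3 lower in BEC-like members, where 23.6% and 19.2% of all genes were. LEC-like SAH members had 0 of 24 higher and 7 lower, where 21% and 20.2% were. By member, the SAH median was 11677 against 9744 CPM in blood endothelium and 17832 against 15522 CPM in LEC-like barcodes. These medians lay above those of the others, while sham blood endothelium had 5284 against 5622 CPM.

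The 8 haemoglobin genes, which belong to red cells, summed to 10.1 CPM in BEC-like sham members and 1501 CPM in the others. With HEV-like barcodes joined, the sums were 2058 CPM in sham members and 1179 CPM in the others. There 1 HEV-like member held 2690 Hbb-bs UMIs, so the low BEC-like value depends on the panel that member was assigned to. The part of red cell RNA in the other differences was not tested.

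**Figure D3:**
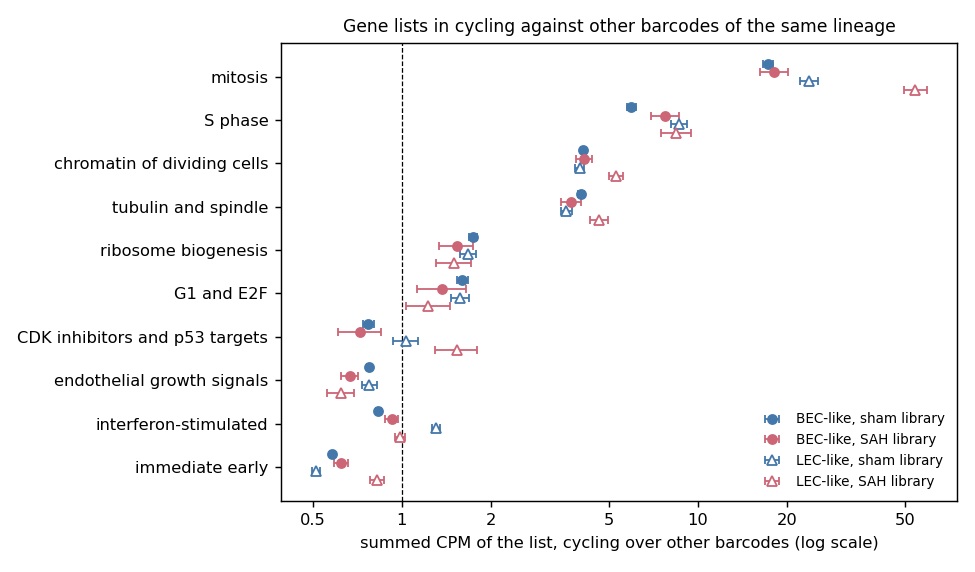
Summed CPM of each gene list in cycling barcodes divided by that in other barcodes of the same lineage and library (x axis, log scale), for BEC-like (filled circles) and LEC-like barcodes (open triangles). Bars are exact 95% intervals for counting error, and the dashed line marks equal levels. Mitosis and S-phase lists stand far to the right, 17.3 and 5.96 in BEC-like sham barcodes, and the immediate early list stands to the left in all 4 comparisons.

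The last comparison asked whether cycling cells of the libraries differed in more than their number. No lineage had 20 members in both libraries, so BEC- and HEV-like members were joined as blood endothelium, 155 sham and 21 SAH barcodes with 2188720 and 247449 UMIs. Of 3556 genes at 50 CPM, 626 (17.6%) were at least 1.5-fold higher and 528 (14.8%) lower in the SAH library. Under TMM scaling, which shifted all log2 folds by -0.12, these numbers were 482 and 745, so no excess of either direction is given. Among the other blood endothelial barcodes, with far more UMIs, 160 of 3301 genes (4.85%) were higher and 56 (1.7%) lower. For BEC-like barcodes alone these shares were 5.84% and 1.84%, and for LEC-like ones 7.08% and 3.05%.

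Interferon-stimulated genes were higher in SAH members. Of the 25 at 50 CPM, 22 were at least 1.5-fold higher and 0 lower, and the list summed to 11178 CPM in SAH and 5570 CPM in sham members (2.01-fold [1.93, 2.09]). The median log2 fold was 1.35, against 0.05 over all 3556 genes. This list was already known from earlier results of these libraries to be higher in the SAH library, and the other blood endothelial barcodes showed it too, with 20 of 25 higher and sums of 11677 and 6478 CPM (1.80-fold [1.79, 1.81]). By member, the list ran from 774 to 15206 CPM with a median of 5284 CPM in the sham library and from 3039 to 27397 CPM with a median of 11677 CPM in the SAH library. The ranges overlapped, and the SAH median lay above the middle 50% of other sham barcodes, which ended at 7811 CPM.

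Single genes of the list varied in the size of their fold. Irf7, the factor that amplifies interferon signalling, was at 295 CPM in SAH and 54.4 CPM in sham members, 5.43-fold [4.00, 7.32], against 4.58-fold in the other barcodes. Zbp1, a sensor of Z-form nucleic acid, was 5.45-fold [3.52, 8.35] higher in members and 2.25-fold in others. Isg15 was 4.19-fold [3.42, 5.12] and 2.28-fold higher, and Ifit3 4.03-fold [2.78, 5.76] and 1.70-fold. Ifitm3, the most abundant, was alike in both, 1.76-fold [1.66, 1.86] and 1.71-fold. Oas1a rests on 13 and 12 UMIs.

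**Figure D4:**
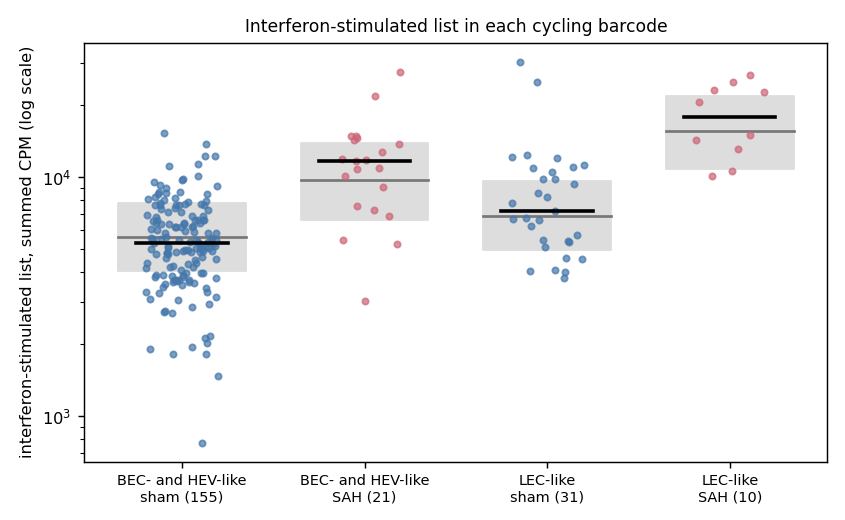
Summed CPM of 29 interferon-stimulated genes (y axis, log scale) in each cycling barcode of blood endothelium (BEC- and HEV-like) and LEC-like barcodes, in the sham (blue) and the SAH library (red), with numbers of members below. Black bars are the members' medians, and grey bars and boxes the median and middle 50% of the other barcodes of that lineage. The median is 5284 CPM in sham and 11677 CPM in SAH blood endothelium, with overlapping points.

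**Figure D5:**
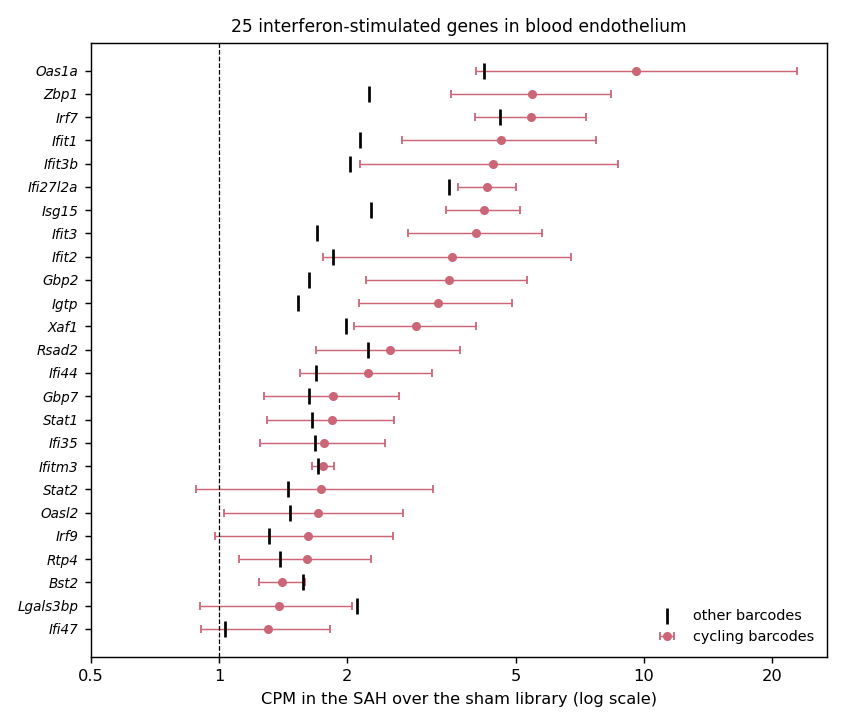
CPM in the SAH library over CPM in the sham library (x axis, log scale) for the 25 interferon-stimulated genes that reach 50 CPM in cycling blood endothelium. Points with exact 95% intervals for counting error are cycling barcodes, black ticks the other barcodes, and the dashed line marks equal levels. All 25 points lie right of 1, 22 of them by at least 1.5-fold.

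Among the highest genes named by rule in SAH members of blood endothelium were Zbp1, Irf7, H2-T23, Isg15, Gbp2, Grina and Igtp. H2-T23, a non-classical class I gene, was at 618 against 136 CPM, 4.56-fold in members and 2.69-fold in others. It has close relatives among class I genes, so its share of their reads is uncertain. The 8 lowest were Fam198b, Tmem252, Mcam, Aplnr, Lix1l, Fabp5, Mpzl1 and Cdc42ep3. Tmem252 was at 92.9 CPM in SAH and 617 CPM in sham members, 0.151-fold [0.0952, 0.227], against 0.433-fold in the others. Aplnr, the apelin receptor, was at 76.8 against 383 CPM, 0.201-fold [0.120, 0.315], against 0.381-fold, and 3 members gave 78.9% of its SAH UMIs. Mcam (CD146), an endothelial adhesion protein, was at 48.5 against 256 CPM and 0.547-fold in the others. Fabp5, a fatty acid carrier, was at 72.7 against 316 CPM and 0.707-fold in the others. HEV-like barcodes were 9 of 21 SAH but 18 of 155 sham members of blood endothelium, so the make-up of the joined group differed between the libraries. Glycam1, an HEV product and a marker of the HEV panel, was at 8664 against 2047 CPM. Over members of all lineages it was detected in 39 of 40 SAH and 160 of 206 sham barcodes. An HEV-like SAH member held 973 of its 2312 SAH UMIs, so its level is no separate measure of the make-up. In BEC-like members alone the interferon ratio was 2.01 [1.90, 2.12], and 25 of 26 genes were higher, where 22.5% of all genes were higher and 15% lower. Without barcodes holding Ptprc, among them the SAH member with Jchain, the ratio in blood endothelium was 2.15 [2.06, 2.25].

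The summed cell cycle lists differed less than 1.5-fold between the libraries in blood endothelium. The S-phase list was 0.922-fold [0.840, 1.01] and the mitosis list 0.902-fold [0.830, 0.980] in SAH against sham members, with 1 higher and 2 lower of 18 and 1 higher and 4 lower of 24 genes. Tubulin and spindle genes were lower in 4 of 8 cases, Tubb5 standing at 1350 against 2008 CPM. Beside these counts, 17.6% of all genes were higher and 14.8% lower, so the S-phase and mitosis counts are not read as a difference. The chromatin list was 0.857-fold [0.815, 0.900]. The immediate early list was 0.833-fold [0.796, 0.870], with 0 of 18 higher and 5 lower, where 17.6% and 14.8% of all genes were. Jun went the other way at 1374 against 922 CPM. In BEC-like members alone the list was 0.933-fold [0.882, 0.986], with 1 of 18 higher and 2 lower. Over 7 alternatives it ran from 0.766 to 0.933, and 5 of them moved. In LEC-like members, 10 SAH and 31 sham barcodes, the mitosis list was 1.72-fold [1.57, 1.88] and the S-phase list 0.848-fold [0.749, 0.957]. There 892 of 4145 genes (21.5%) were higher and 843 (20.3%) lower, and 19 of 28 mitosis genes were among the higher. The member with 238 mitosis UMIs held 33.4% of those of the SAH side. The interferon list was 1.64-fold [1.56, 1.72] in LEC-like members, with 7 of 23 genes higher and 4 lower, and 2.17-fold [2.16, 2.19] in the other LEC-like barcodes, and Irf7 was 3.86-fold and 6.24-fold higher. Without the 2 sham members highest in the list it was 2.25-fold [2.13, 2.38] in LEC-like members, with 16 of 20 genes higher and 1 lower. Of the 4 lower genes, Ifit3 had 93.9% and Gbp2 86.9% of its sham UMIs in 3 sham barcodes.

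Replication histones summed to more in SAH than in sham members, and how many genes were higher depended on the lineage. In blood endothelial members the 68 genes summed to 4.67-fold [4.38, 4.96], with 6 of the 9 at 50 CPM higher, where 17.6% of all genes were. The gene Hist1h2ap carried most of it, and without it the sum was 1.86-fold [1.69, 2.05], at 2085 against 1121 CPM, with 5 of 8 higher. With Hist1h2ap kept, 12 of 12 were higher in BEC-like members alone (5.80-fold [5.40, 6.23]), where 22.5% of all genes were. In LEC-like members 3 of 8 were higher and 2 lower (3.42-fold [3.04, 3.85]), where 21.5% and 20.3% of all genes were. The values of single histone genes that follow are over barcodes of all lineages, not blood endothelium alone. Hist1h2ap, a histone H2A gene of the main cluster (chr13:21833026-21833507, minus strand, GRCm38), was at 206 CPM in sham and 3304 CPM in SAH members, 16.1-fold [14.6, 17.7]. It was detected in 93 of 206 and 29 of 40 members, with at most 28 UMIs in a sham and 247 in an SAH member. The other kept barcodes showed the gap too, at 0.898 and 14.2 CPM (15.8-fold [12.1, 21.0]). Hist1h2ae, a further H2A gene, was at 124 and 270 CPM in members and 0.867 and 2.60 CPM in others. The linker histones Hist1h1b and Hist1h1e stood at 214 and 268 CPM, and 159 and 326 CPM, in members. Hist1h4d was at 186 and 153 CPM. The S-phase list of blood endothelial members, 0.922-fold, showed no such gap. Genes of this cluster are near-identical, so how the counting split reads between copies is uncertain, and its part in the gap was not tested.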

How the data were processed

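Gene expression was read in 1 sham and 1 SAH library. What the authors deposited are unnormalised counts of UMIs for 27998 genes (27933 symbols) in each barcode, made with Cell Ranger 5.0, STAR and mm10 per the submitters' processing notes, which also name Seurat 3.0.2. The file headers give software version 5.0.0, and the annotation release is not given in the sources used here. The sham library held 13952 barcodes with 72860197 UMIs, the SAH library 13766 with 78497486.

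Counts of entries sharing a symbol were summed. Members were found by the stated rule, and lineages by panels of 8 markers. Members, lists and panels were chosen with earlier results of these data known. CPM is UMIs per 1000000 UMIs of a group's sum. Folds carry exact conditional binomial and shares exact Clopper-Pearson 95% intervals, checked on simulated data. Cells of 1 library are not replicates, so nothing was tested. Alternatives included TMM (edgeR 4.0.16, R 4.3.3), thinning to 2000 UMIs and leaving out Scrublet doublets (scanpy 1.11.5, expected rate 0.1), which the reported values keep. Python 3.11.15, numpy 2.4.6 and scipy 1.17.1 were used. With no lineage of 20 members in both libraries, blood endothelium was compared instead, a choice made after seeing the data.

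Named genes were the 10 highest and 10 lowest folds of cycling over other barcodes at 50 CPM, with the same direction in both libraries, and the 8 highest and 8 lowest of SAH over sham at 100 CPM with at most 50% of the higher library's UMIs in 3 barcodes. Genes of ribosomal proteins, mitochondria, haemoglobin and antigen receptors, predicted genes and sex-linked markers could not be named by it, and 1 gene it named is not reported here. The lineage genes, the rule genes and examples of each list were added, and Hist1h2ap, Elane, Mpo, Prtn3, Jchain, Krt8, Hbb-bs, Alas2 and Glycam1 are named with their values known.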

Additional observations from a re-analysis of the deposited data

How the results depend on the processing

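Of 212 alternative values, 155 kept their direction and stayed within the counting interval or within 1.5 times of a count, 54 moved and 3 turned. The SAH-to-sham ratio of cycling shares ran from 0.144 to 0.291 over 12 alternatives, with 0.278 at 3 rule UMIs and 0.291 at 5 per 10000 UMIs. The BEC-like ratio was 0.215 at 5 per 10000 UMIs, and the LEC-like ratio stayed between 0.232 and 0.459. The HEV-like ratio was 0 with lineage by 1 gene, from 1 of 115 and 0 of 132 barcodes. The fibroblastic-like ratio turned to 1.29 without barcodes of a second compartment and was 0.144 with at least 3 rule genes detected. BEC-like barcodes were 56.3% of sham members with lineage read after thinning. The S-phase to mitosis ratio was 0.901 sham and 0.858 SAH at 3 rule UMIs, 0.686 and 0.541 at 10, and in the sham library 0.769 without the lists' most abundant genes, 0.773 without Scrublet calls and 0.775 with at least 3 rule genes.

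Numbers of genes higher and lower in members were 766 and 903 in BEC-like and 1219 and 1172 in LEC-like sham barcodes at 20 CPM, 2400 and 6223, and 2717 and 6347, with no minimum, and 193 and 92, and 287 and 196, at a fold of 2. For SAH against sham in blood endothelium they were 1543 and 1202 at 20 CPM and 3174 and 4885 with no minimum. The endothelial growth signal list there turned from 0.946 to 1.02 without barcodes holding Ptprc. Without the 2 sham LEC-like members highest in the interferon list, that list turned from 1.31 to 0.949 for cycling against other barcodes, and was 2.25 in place of 1.64 for SAH against sham members. The histone sum of blood endothelial members was 1.86 in place of 4.67 without Hist1h2ap. The settings behind these 3 values and those with 3 rule genes detected, without Ptprc barcodes, with mitosis genes in place of the rule genes, with deep other barcodes and with BEC-like members alone were chosen after seeing the data. No paired analysis was possible because each group is 1 library and the labels give no shared replicate numbers, and for the same reason no library could be left out. With 12 BEC-like and 10 LEC-like SAH members, the depth of the SAH side limits every gene-level fold.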
